A study of Mus musculus with 6 samples.

Results

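The integrins, cadherins and protocadherins were examined in RNA-seq libraries of mouse peritoneal macrophages, as the adhesion receptors through which a cell holds matrix or a neighbouring cell. Members were the listed transcripts whose gene symbol begins with Itga, Itgb, Cdh followed by a digit, or Pcdh, without Cdh2. They numbered 135 transcripts of 75 genes, out of 33539 listed transcripts of 16245 named genes. The study compared 3 libraries of Fbxo38 cKO macrophages with 3 libraries of wild-type (WT) macrophages from littermate mice. In the cKO mice Fbxo38, which encodes the substrate-binding subunit of a ubiquitin ligase, was deleted in myeloid cells. The sources used here give neither the promoter that drove the deletion nor the age of the mice. For 24 h before collection both genotypes had received IL-4 and IL-13 (20 ng/mL), and no unstimulated group was analysed here. Abundance is given as TPM (transcripts per 1000000 transcripts, a measure already divided by length).

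Integrins are receptors of 1 alpha and 1 beta chain that bind matrix proteins or counter-receptors on other cells. The chains of the beta 2 family are the integrins of leukocytes, and macrophages are usually recognised by the alpha M chain (CD11b, gene Itgam). The beta 1 and alpha v families are used by fibroblasts, mesothelial cells and epithelia, and several of their chains are also made by macrophages. Classical cadherins join like cells to each other through calcium-dependent contacts and are best known from epithelia and connective tissue. Protocadherins are a related family, studied mostly in neurons, in which a large part is encoded in 3 gene clusters.

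The deposited table is selected on the outcome, and this sets what can be said of each receptor. Over all listed transcripts of the authors' deposited table, the smallest absolute log2 fold change was 1.0001. Of 121 protein-coding genes that the same name rule matches in GENCODE M21, 74 had a listed transcript. The leukocyte chains Itgal, Itgax, Itgb2 and Itgb7 had none and were not analysed here. The same holds for Itgb3 and Itgb6 among the integrins of adherent cells. For a gene that is listed, other transcripts may lie outside the table, so sums over listed transcripts are partial levels.

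Most listed members were scarce. In 117 of the 135 transcripts, or 86.7%, no library reached 1 TPM, against 78.7% of all listed transcripts. By another measure they were not scarcer than the rest, since 44 members, or 32.6%, were above 0 in 1 library alone, against 36.0% of all listed transcripts. By GENCODE class, 87 members were protein-coding, 22 were retained introns, 17 were processed transcripts without a coding frame, 5 were subject to nonsense-mediated decay, 1 was a polymorphic pseudogene and 3 had been assembled from the reads. The depth behind these values is unknown, since TPM does not keep it.

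The libraries were not alike before any receptor is considered. WT 2 held 6.57% of its TPM in listed transcripts, against 2.01% to 3.79% in the other 5 libraries, and it had 94 members above 0, against 50 to 71 in the others. Transcripts of the Y-linked gene Eif2s3y were listed at 0 in WT 1 and WT 2. The gene was above 0 in WT 3 and the cKO libraries, so the WT group is mixed in this respect. The sex-linked gene Xist was split the other way. Its transcript ENSMUST00000127786 read 2.26 TPM for WT 1, 30.27 TPM for WT 2 and 0 for every other library. No cKO library shared the pattern of WT 1 and WT 2, so these sex-linked transcripts are not balanced between the genotypes. The targeted gene Fbxo38, summed over its 7 listed transcripts, was at 6.14, 9.08 and 5.9 TPM in cKO and at 8.79, 11.8 and 12.4 TPM in WT. These ranges overlapped, and the difference on the log2(TPM + 1) scale was -0.59 ± 0.23 (SE), with an exact two-sided permutation p of 0.2. The 7 transcripts passed the table's selection in both directions, so their sum is no measure of the whole gene. MSTRG.8674.3 was at 0, 5.4 and 2.27 TPM in cKO and at 0 in each WT library. The annotated ENSMUST00000048688 was at 0.33, 0 and 0 TPM in cKO and at 0.36, 3.78 and 0.78 TPM in WT. Which exons were deleted is not stated in the sources used here. Of the 12 macrophage markers on the list used, 5 genes had listed transcripts. Adgre1, which encodes the macrophage marker F4/80, was at 1.05, 2.35 and 1.37 TPM in cKO and at 4.18, 3.63 and 5.58 TPM in WT.

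The upstream sequence of the most abundant listed integrin gene, Itgav, is set beside that of the leukocyte integrin gene Itgam. The pair is shown because integrins of adherent cells are set beside those of leukocytes here. Both are the 250 bases before the gene start in RefSeq (build GRCm38.p6), on the plus strand. Capitals mark the core GAGGAA, which the myeloid factor PU.1 can bind and which holds the GGAA of all ETS factors, and the GC box GGGCGG. Both motifs were searched on both strands, so TTCCTC and CCGCCC are marked too, and no match of one motif overlapped a match of the other.
Itgav, chr2:83724147-83724396: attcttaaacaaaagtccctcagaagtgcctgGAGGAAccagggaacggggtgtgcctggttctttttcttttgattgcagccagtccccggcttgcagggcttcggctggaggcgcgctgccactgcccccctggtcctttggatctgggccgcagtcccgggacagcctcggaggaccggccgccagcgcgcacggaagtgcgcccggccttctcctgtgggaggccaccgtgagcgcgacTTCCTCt
Itgam, chr7:128062390-128062639: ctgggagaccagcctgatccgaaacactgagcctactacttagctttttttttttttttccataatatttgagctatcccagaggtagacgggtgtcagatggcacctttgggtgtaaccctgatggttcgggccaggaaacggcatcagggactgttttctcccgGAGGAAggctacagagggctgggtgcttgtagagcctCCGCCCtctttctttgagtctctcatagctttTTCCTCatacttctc
The Itgav stretch is 64.4% G and C and the Itgam stretch 49.6%, against a median of 52.4% over 32851 promoter windows of the same length. Each held the GAGGAA core in 2 places, and 23.3% of all windows held it at least once. The GC box was found once in Itgam and not in the Itgav window, and 32.7% of all windows held it. These matches describe letters only. Sequence of this kind was at hand for 31 of the 75 genes.

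In the comparison of cKO with WT macrophages, no member passed the test across the whole table. The 4 members abundant enough to be tested, of the alpha v integrin gene Itgav and of the cadherin genes Cdh11, Cdh3 and Cdh1, had mean levels in WT that were 2.70 to 5.52 times those in cKO. Their adjusted p lay between 0.209 and 0.234 in limma's moderated test, and WT 2 was the highest library for each. All 4 were lower in cKO by the log2 fold change, against 50.6% of all tested transcripts. Among all 135 members, 100, or 74.1%, had a lower deposited level in cKO and 35 a higher one, against 60.6% lower among all listed transcripts.

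Itgav encodes the alpha v chain, which pairs with several beta chains to bind vitronectin, fibronectin and latent TGF-beta. Its main listed transcript ENSMUST00000028499 was at 1.13, 5.33 and 2.96 TPM in cKO and at 4.39, 16.4 and 8.52 TPM in WT. The highest cKO library lay above the lowest WT library, so the groups overlapped. The means were 3.14 ± 2.11 TPM in cKO and 9.77 ± 6.10 TPM in WT (SD, n = 3 each). The log2 fold change was -1.35 ± 0.64 (SE), with a limma adjusted p of 0.209. The authors' deposited table gives -1.30 with an adjusted p of 0.456.

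An assembled transcript of Itgav, MSTRG.10140.1, was separate between the genotypes. It was at 0.54, 0.46 and 0.26 TPM in cKO and at 0.99, 2.18 and 1.62 TPM in WT. Each WT library was above each cKO library, but with only 2 libraries at 1 TPM it was not tested. In the authors' deposited table it had the lowest unadjusted p of all members, 0.000799, and after adjustment 0.171. When the 6 listed Itgav transcripts were summed, the gene was at 1.69, 5.89 and 3.22 TPM in cKO and at 7.36, 19.9 and 10.3 TPM in WT. These sums did not overlap, and the exact two-sided permutation p was 0.1, the smallest that 3 against 3 can give. All 6 transcripts passed the table's selection on fold change and were lower in cKO, so their sum leans that way by selection. The WT 1 sum holds 1.94 TPM of ENSMUST00000125402, a transcript of 444 bases that was above 0 in WT 1 alone. Without that transcript, WT 1 would lie below cKO 2. In the limma fit of sums per gene, the Itgav difference was -1.55 ± 0.55 (SE), with an adjusted p of 0.212.

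Cdh11 encodes cadherin 11, the cadherin of fibroblasts and other mesenchymal cells. Its transcript ENSMUST00000075190 was at 1.04, 4.16 and 4 TPM in cKO and at 3.65, 17.0 and 7.77 TPM in WT. WT 1 lay below 2 of the cKO libraries. The means were 3.07 ± 1.76 TPM in cKO and 9.48 ± 6.85 TPM in WT (SD, n = 3 each), and the log2 fold change was -1.27 ± 0.66 (SE), with a limma adjusted p of 0.227.

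Cdh3 encodes P-cadherin, found in epithelia. Its transcript ENSMUST00000080797 was at 0.23, 0.89 and 1.03 TPM in cKO and at 0.83, 8.95 and 2.09 TPM in WT. WT 1 lay within the cKO range, and WT 2 was 6.13 times the mean of the other 2 WT libraries. The log2 fold change was -1.19 ± 0.63 (SE), with a limma adjusted p of 0.234.

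Cdh1 encodes E-cadherin, the cadherin of epithelia, which alternatively activated mouse macrophages can also make. Its transcript ENSMUST00000000312 was at 1.43, 1.92 and 1.4 TPM in cKO and at 2.38, 7.29 and 3.17 TPM in WT. Every WT library was above every cKO library, and Cdh1 was the 1 tested member of 4 without overlap. Among all 2050 tested transcripts, 37.0% had no overlap, 22.9% with cKO lower. The means were 1.58 ± 0.29 TPM in cKO and 4.28 ± 2.64 TPM in WT (SD, n = 3 each), and the log2 fold change was -0.93 ± 0.47 (SE), with a limma adjusted p of 0.218.

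**Figure D1:**
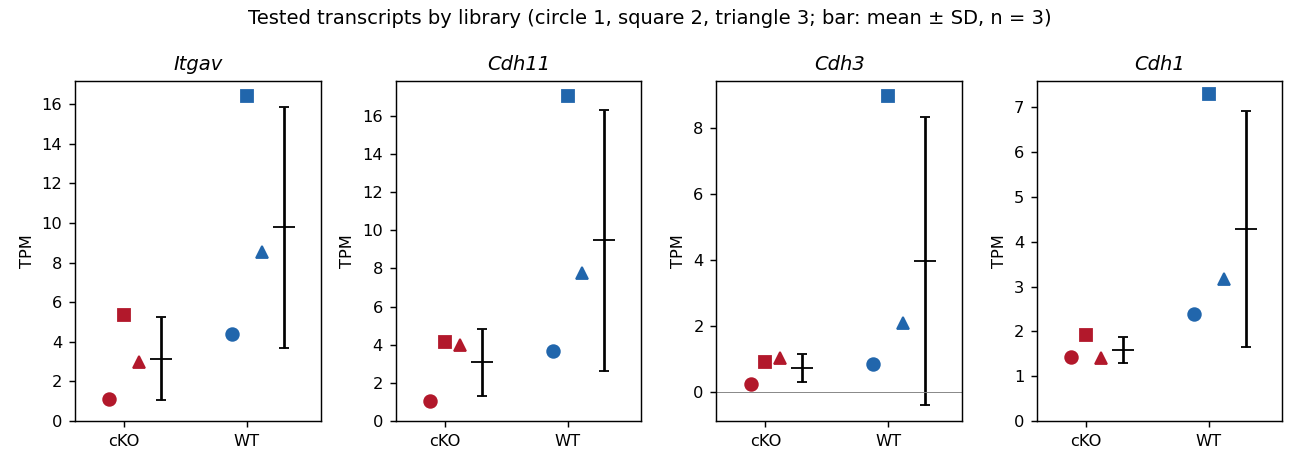
TPM of the 4 tested transcripts of Itgav, Cdh11, Cdh3 and Cdh1 in each cKO and WT library, with the mean and SD of 3 libraries beside the points. WT 2 (square) is the highest point in each panel, and only the Cdh1 panel has every WT point above every cKO point.

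The sums of mesothelial, fibroblast and macrophage marker transcripts given further on were each highest in WT 2 and lowest in cKO 1. The part of these cells in the 4 differences was not tested. The median ratio over listed transcripts, also given further on, had the same extremes as those sums. Over all tested transcripts the limma test called 0 of 2050, or 0.0%, at an adjusted p under 0.05, and 472, or 23.0%, at an unadjusted p under 0.05. None of the 4 members was under 0.05 unadjusted, their lowest p being 0.0663 for Itgav. The median log2 fold change over all tested transcripts was -0.39. Without WT 2 the WT means of the 4 transcripts were between 1.75 times the cKO mean for Cdh1 and 2.06 times for Itgav. Among the libraries with Y-linked transcripts, which leave WT 3 against 3 cKO libraries, the log2 fold changes were -1.34 for Itgav, -1.23 for Cdh11, -0.88 for Cdh3 and -0.70 for Cdh1.

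Leukocyte integrins gave little signal in the table. The 10 listed transcripts, of Itgam, Itga4, Itgad and Itgae, summed to 0.09, 0.37 and 0.34 TPM in cKO and to 1.42, 1.61 and 0.77 TPM in WT. The sums did not overlap, and each is a small part of a library. Of the 10 transcripts, 7 had a lower deposited level in cKO and 3 a higher one, and the median deposited log2 fold change was -1.60, against -1.37 over all listed transcripts.

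Itgam encodes the alpha M chain of the complement receptor Mac-1, and its 3 listed transcripts did not go one way. The one with the highest level, ENSMUST00000156593, is a short transcript of 349 bases subject to nonsense-mediated decay. It was listed at 0 in each cKO library and at 1.03, 1.03 and 0 TPM in WT. The coding transcript ENSMUST00000120355 was listed at 0 in each cKO library and at 0.18, 0.28 and 0.07 TPM in WT. The other coding transcript, ENSMUST00000106240, was at 0.09, 0.2 and 0.2 TPM in cKO and at 0, 0.07 and 0.21 TPM in WT, where WT 3 was close to cKO 2 and cKO 3 and WT 1 and WT 2 lay below each cKO library. In the authors' deposited table their log2 fold changes were -2.59, -5.84 and 1.28, with adjusted p of 1, 0.402 and 1.00.

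The other leukocyte chains were fainter still. Itga4, the alpha 4 chain of the receptor for VCAM-1, had 3 listed transcripts, all without a coding frame, and its highest, ENSMUST00000135919, was listed at 0 in each cKO library and at 0.11, 0 and 0.35 TPM in WT. Itgad, the alpha D chain, reached 0.09 TPM in cKO 3 in its assembled transcript MSTRG.16950.2 and was at 0 there in the other 5 libraries. Itgae, the alpha E chain that binds E-cadherin, stayed at 0.04 TPM or less.

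Integrins of adherent stromal, mesothelial and epithelial cells made up 39 listed transcripts of 15 genes. Their sum was 3.27, 9.96 and 5.85 TPM in cKO and 15.8, 30.9 and 15.7 TPM in WT, with each WT library above each cKO library. With Itgav left out, the sum was 1.58, 4.07 and 2.63 TPM in cKO and 8.41, 10.99 and 5.34 TPM in WT. Of the 39, 28 had a lower deposited level in cKO and 11 a higher one, with a median deposited log2 fold change of -1.52. The share that was lower, 71.8%, was close to the 70% of the 10 leukocyte transcripts, and both groups are too small and too selected for this to tell them apart.

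**Figure D2:**
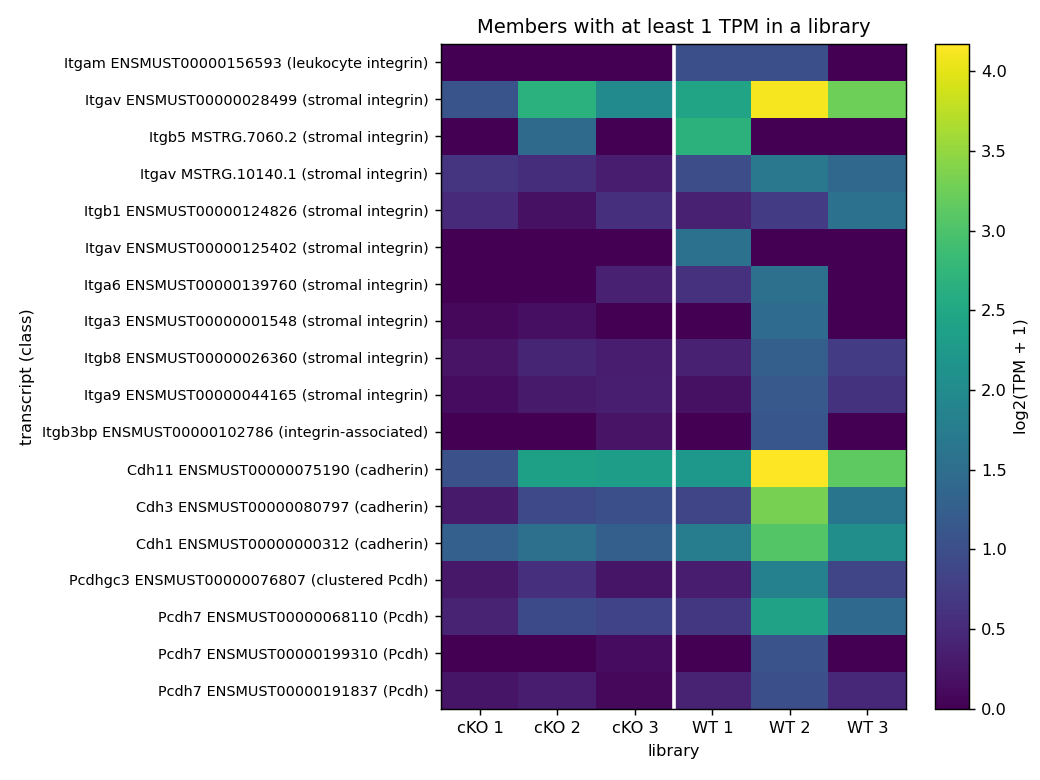
Level as log2(TPM + 1) of the 18 members with at least 1 TPM in a library, 1 row per transcript with its class, in cKO libraries 1 to 3 left of WT libraries 1 to 3. Itgav ENSMUST00000028499 and Cdh11 ENSMUST00000075190 are the brightest rows, and WT 2 is the brightest column in 14 of the 18 rows.

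Partners of the alpha v chain were examined next. Itgb8 encodes the beta 8 chain, which with alpha v releases active TGF-beta from its latent form. Its coding transcript ENSMUST00000026360 was at 0.17, 0.35 and 0.26 TPM in cKO and at 0.3, 1.4 and 0.67 TPM in WT, where WT 1 lay within the cKO range. Itgb5 encodes the beta 5 chain of a vitronectin receptor. Its assembled transcript MSTRG.7060.2 was at 0, 1.71 and 0 TPM in cKO and at 5.44, 0 and 0 TPM in WT, so a single library of each genotype held all of it. The other listed Itgb5 transcript, ENSMUST00000151930, was at 0.42, 0 and 0.44 TPM in cKO and at 0 in each WT library. Itgb1 encodes the beta 1 chain shared by most matrix receptors. One of its 2 listed transcripts, ENSMUST00000124826, subject to nonsense-mediated decay, was at 0.41, 0.14 and 0.48 TPM in cKO and at 0.31, 0.67 and 1.96 TPM in WT. That Itgb1 transcript lay at the edge of the authors' deposited table, at -1.01 on the log2 scale. The other, the retained intron ENSMUST00000135281, was at 0.14, 0 and 0.32 TPM in cKO and at 0 in each WT library.

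Among the remaining alpha chains of this class, the listed transcripts of Itga6 had the highest sum. Itga6 encodes the alpha 6 chain of laminin receptors, and its 4 listed transcripts summed to 0, 0.4 and 0.45 TPM in cKO and to 1.04, 3.4 and 0.75 TPM in WT. The Itga6 sums did not overlap, with an exact permutation p of 0.1, the smallest possible. All 4 transcripts were lower in cKO in a table selected on fold change, so their sum leans that way by selection. Itga3, the alpha 3 chain of another laminin receptor, had its coding transcript ENSMUST00000001548 at 0.07, 0.13 and 0 TPM in cKO and at 0, 1.75 and 0 TPM in WT. All the WT signal of that Itga3 transcript was in WT 2, and the authors' deposited table gives it a p of 1. Itga7, the alpha 7 chain of the laminin receptor of muscle, had 2 transcripts without overlap. The higher of these, ENSMUST00000218290, was at 0, 0 and 0.11 TPM in cKO and at 0.28, 0.62 and 0.23 TPM in WT. Itga9, whose chain binds tenascin C and osteopontin, had its coding transcript ENSMUST00000044165 at 0.1, 0.23 and 0.28 TPM in cKO and at 0.14, 1.24 and 0.52 TPM in WT, and WT 1 lay within the cKO range.

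Collagen receptors were near 0. The listed transcripts of Itga1, Itga2, Itga10 and Itga11, the alpha chains that bind collagens, reached no more than 0.22 TPM in any library. The listed transcript of Itga5, the alpha chain of the classical fibronectin receptor, is a retained intron and was at 0 in each cKO library and at 0, 0.49 and 0.34 TPM in WT. Itga2b, the alpha chain of platelets, had 3 listed transcripts of 0.38 TPM or less. Among genes that the name rule takes in but that are not integrin chains, Itgb3bp, which encodes a centromere protein, had its transcript ENSMUST00000102786 at 0, 0 and 0.16 TPM in cKO and at 0, 1.17 and 0 TPM in WT. Itgb1bp2 and Itgbl1 stayed at 0.09 TPM or less.

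The other cadherins were scarce beside Cdh11, Cdh3 and Cdh1. These 3 genes together summed to 2.7, 6.97 and 6.43 TPM in cKO and to 6.86, 33.5 and 13.0 TPM in WT, nearly all the signal of the 13 classical and type II cadherin transcripts. WT 1, at 6.86 TPM, lay below cKO 2, at 6.97 TPM. Cdh5, the VE-cadherin of endothelium, had a short coding transcript, ENSMUST00000209911, at 0.94 TPM in cKO 3 and at 0 in the other 5 libraries. Its longer transcript ENSMUST00000034339 did not exceed 0.11 TPM anywhere. Cdh24 ENSMUST00000067784 was at 0.01, 0.03 and 0.05 TPM in cKO and at 0.01, 0.38 and 0.12 TPM in WT. Cdh23, a cadherin of the hair cells of the inner ear, had 4 listed transcripts of 0.22 TPM or less.

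Clustered protocadherins formed the class with the most genes, with 39 transcripts of 32 genes. Of the 39, 34, or 87.2%, had a lower deposited level in cKO, against 60.6% of all listed transcripts. Their sum was 0.64, 1.11 and 0.85 TPM in cKO and 1.24, 9.05 and 2.89 TPM in WT. WT 2 was the highest library for 29 of the 39, where it was for 37.4% of all listed transcripts, and 8 of the 39 were above 0 in WT 2 alone. The gamma cluster gave 25 of these transcripts, 23 of them lower in cKO, and most of the signal, at 0.62, 1.03 and 0.64 TPM in cKO and 1.13, 8.28 and 2.45 TPM in WT. The alpha cluster gave 5 and the beta cluster 9, with no transcript of either above 0.2 TPM.

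Pcdhgc3, one of the C-type genes at the end of the gamma cluster, was its most abundant member. Its transcript ENSMUST00000076807 was at 0.21, 0.49 and 0.18 TPM in cKO and at 0.26, 2.55 and 0.84 TPM in WT, with WT 1 within the cKO range. Pcdhgb6 ENSMUST00000003599 was at 0.11, 0.19 and 0.07 TPM in cKO and at 0.13, 0.73 and 0.2 TPM in WT. Pcdhgb2 ENSMUST00000195112 was at 0, 0.08 and 0.05 TPM in cKO and at 0.08, 0.48 and 0.21 TPM in WT, where WT 1 was level with cKO 2. Gamma genes splice a variable first exon of their own to exons that all share. Of 17 other listed coding gamma transcripts, 11 had their last 2119 to 2122 bases in common with Pcdhgc3, so reads from that stretch cannot be assigned to 1 gene, and the levels of single gamma genes are uncertain.

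Non-clustered protocadherins were led by Pcdh7, with 7 listed transcripts. Its coding transcript ENSMUST00000068110 was at 0.33, 0.92 and 0.78 TPM in cKO and at 0.59, 4.3 and 1.7 TPM in WT, and WT 1 lay within the cKO range. A longer Pcdh7 transcript, ENSMUST00000191837, was at 0.18, 0.25 and 0.06 TPM in cKO and at 0.33, 1.02 and 0.39 TPM in WT, without overlap. Summed per gene, Pcdh7 was tested by limma and did not pass, at -0.86 ± 0.54 (SE) and an adjusted p of 0.331. Pcdh1 ENSMUST00000159405, of a protocadherin also known from airway epithelium, was at 0.01, 0 and 0 TPM in cKO and at 0.09, 0.13 and 0.19 TPM in WT. Pcdh18 and Pcdh19 stayed at 0.12 TPM or less.

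**Figure D3:**
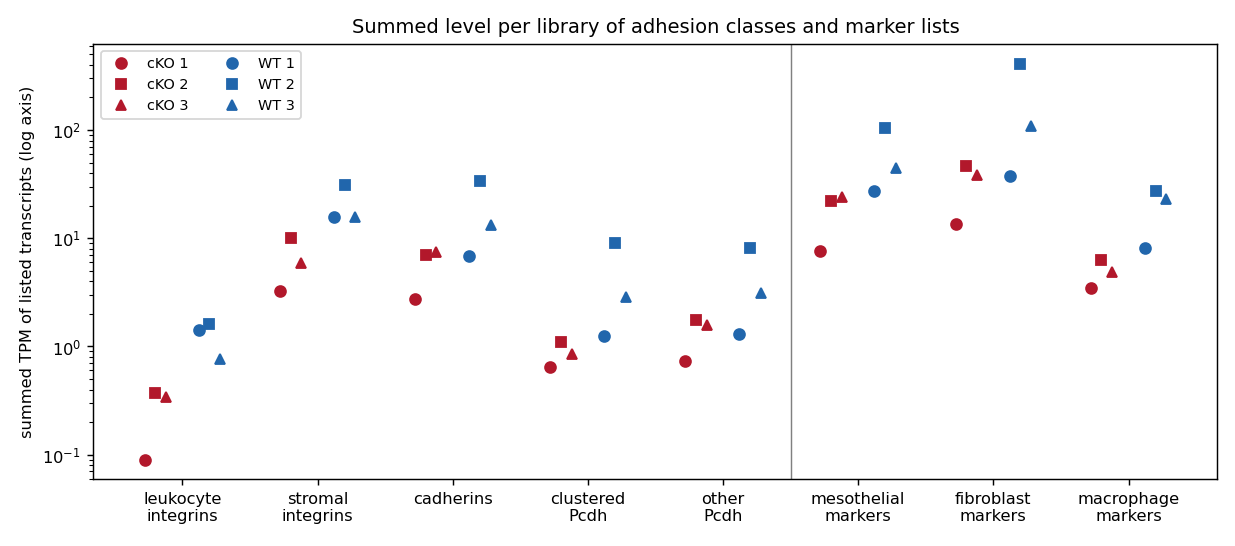
Summed TPM of the listed transcripts of 5 adhesion receptor classes (left of the line) and of 3 lists of cell type markers (right of it), 1 point per library, on a log axis. WT 2 is the highest point in each column, and cKO 1 is the lowest in each.

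Direction differed between transcript classes. Members classed as protein-coding were lower in 70 of 87 cases, or 80.5%, against 61.1% of all listed protein-coding transcripts. The other members were lower in 30 of 48 cases, or 62.5%, against 60.3%. WT 2 was the highest library for 75 members, or 55.6%, against 37.4% of all listed transcripts.

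The count was smaller without WT 2. By mean TPM, 100 members were lower in cKO with all libraries. Without WT 2, 73 members, or 54.1%, were lower, 43 were higher and 19 had equal means. The share of all listed transcripts that was lower also dropped without WT 2, being 44.8%. In the libraries with Y-linked transcripts, 66 members, or 48.9%, were lower, 41 were higher and 28 had equal means, against 39.5% lower of all listed transcripts.

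Groups without overlap were near the background. Every cKO value was below every WT value for 17 members, or 12.6%, against 8.11% of all listed transcripts. No member had every cKO value above every WT value. Of the 17, 8 were gamma protocadherins whose highest cKO and lowest WT values lay 0.01 to 0.08 TPM apart, where the table is rounded to 0.01 TPM. The widest gaps were 0.46 TPM for Cdh1 ENSMUST00000000312 and 0.45 TPM for Itgav MSTRG.10140.1.

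In the authors' deposited table no member had an adjusted p under 0.05, while 0.268% of all listed transcripts did. At an unadjusted p under 0.05 there were 13 members, or 9.63%, all lower in cKO, against 6.12% of all listed transcripts and 4.22% that were also lower. They were the 4 tested transcripts, the assembled Itgav transcript, 2 transcripts of Pcdh7, and 1 each of Itgam, Itgb8, Pcdh1, Pcdhgc3, Pcdhga8 and Pcdhga10.

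**Figure D4:**
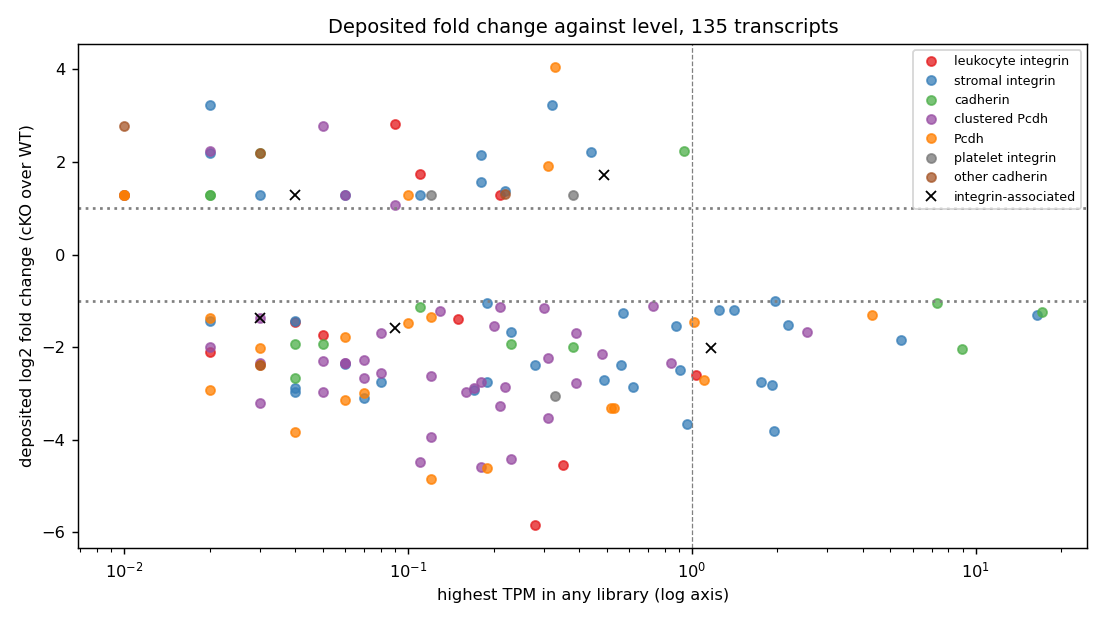
Deposited log2 fold change of cKO over WT against the highest TPM in any library (log axis) for the 135 members, coloured by class, with dotted lines at a 2-fold difference and a dashed line at 1 TPM. Of the 135 points, 117 lie left of the dashed line, and none lies between the dotted lines, since the deposited table holds no such transcript.

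Some scarce members shared their deposited fold change with other transcripts, for a reason that was not tested. In the authors' deposited table, 40 members shared both their log2 fold change and p, rounded to the sixth decimal, with at least 1 other member, in 12 sets. The largest set held 13 members at a log2 fold change of 1.29 and a p of 0.752, values that 2483 listed transcripts carry. These 13, among them Itga8, Cdh10, Cdh18 and Pcdh8, had a highest level of 0.01 to 0.38 TPM, and 11 were above 0 in 1 library alone. Among genes with at least 2 listed transcripts, 18 of 32 member genes, or 56.2%, had them in both directions, against 65.7% of all such genes. Itgam, Itga9, Itgb1, Itgb5, Pcdh7 and Pcdh9 were among them. Itgav, with 6 listed transcripts, had all of them lower in cKO.

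The proteins that act behind these receptors were read from the same fit. Focal adhesion adaptors link integrins to actin, and 28 of the 30 genes listed for this group had a listed transcript. Of their 14 tested transcripts, 11 were lower and 3 higher in cKO, against 50.6% lower among all tested transcripts, and none passed. At an unadjusted limma p under 0.05 were 4 of the 14, where 23.0% of all tested transcripts were. The median log2 fold change was -1.02, against -0.39 over all tested transcripts. No overlap was found for 7 of the 14, against 37.0% of all tested transcripts. Among the 7 was Rap1b MSTRG.2176.1, higher in cKO at 1.77, 2.28 and 1.51 TPM, against 1.37, 0.9 and 1.16 TPM in WT. Vcl, which encodes vinculin, a protein that joins talin to actin, was at 3.15, 4.6 and 3.9 TPM in cKO and at 6.28, 17.1 and 13.3 TPM in WT, without overlap, with a log2 fold change of -1.35 ± 0.53 (SE) and a limma adjusted p of 0.209. A Flna transcript, of the actin crosslinker filamin A, was at 3.67, 5.14 and 4.71 TPM in cKO and at 6.24, 21.2 and 10.6 TPM in WT, a log2 fold change of -1.17 ± 0.56 (SE). It is classed as subject to nonsense-mediated decay.

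A transcript of Ptk2, which encodes focal adhesion kinase, was the 1 member of that group called in the authors' deposited table, and it was singled out after its values were seen. Ptk2 MSTRG.6328.5 was listed at 0 in each cKO library and at 1.14, 1.63 and 1.12 TPM in WT. The authors' deposited table gives it an adjusted p of 2.7e-07. In the limma test of TPM its adjusted p was 0.144. This transcript met the filter on low values through the 3 WT libraries alone, so the direction of that test was fixed in advance. It is 1 of the 11 lower adaptor transcripts and of the 4 under 0.05 unadjusted given above.

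Catenins and other adaptors of cadherins had 42 listed transcripts of 11 genes, 23 of them lower in cKO in the deposited comparison. The 3 tested transcripts came from Nectin2 and Pkp2, 2 lower and 1 higher, and none passed. Nectin2, a cell contact protein beside cadherins, was at 0.8, 2.21 and 2.67 TPM in cKO and at 4.35, 7.28 and 4.46 TPM in WT for ENSMUST00000108450. Pkp2, a desmosomal plakophilin, was at 1.57, 21.2 and 17.5 TPM in cKO and at 2.45, 20.98 and 2.38 TPM in WT, high in 2 cKO libraries and WT 2 and low in the other 3. A scarce coding transcript of Ctnnd1, which encodes p120-catenin, was called in the authors' deposited table as higher in cKO, by 4.76 on the log2 scale (adjusted p 0.0475). That Ctnnd1 transcript was at 0.22, 0.68 and 0.27 TPM in cKO and at 0.04, 0 and 0 TPM in WT, and it too was singled out after its values were seen.

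Counter-receptors of integrins on other cells had 4 tested transcripts, each lower in cKO and none passing, with a median log2 fold change of -0.96. Over all tested transcripts 50.6% were lower and the median was -0.39. All 4 were without overlap, against 37.0% of all tested transcripts, 22.9% with cKO lower. One of them, Cdh1, is a member already counted above. Besides Cdh1, which the alpha E chain binds, they came from Vcam1, F11r and Jam3. Vcam1, bound by the alpha 4 chain, was at 0.52, 1.48 and 1.61 TPM in cKO and at 1.98, 4.86 and 3.45 TPM in WT, without overlap. F11r, which encodes JAM-A, was at 1.1, 1.66 and 2.22 TPM in cKO and at 3.13, 7.49 and 3.52 TPM in WT, also without overlap. Their log2 fold changes were -0.99 and -1.05, each with a limma adjusted p of 0.209.

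Markers of other peritoneal cells were in a like order across the libraries. In bulk RNA, fewer cells of a type and less RNA per cell cannot be told apart. Mesothelial markers, such as Krt8, Lrrn4 and Upk3b, had listed transcripts of 9 of 10 genes, which summed to 7.62, 22.0 and 24.0 TPM in cKO and to 27.2, 105 and 44.3 TPM in WT. Fibroblast markers, such as Col1a1, Col1a2 and Col3a1, had listed transcripts of 8 of 10 genes, which summed to 13.5, 46.4 and 38.1 TPM in cKO and to 37.8, 410 and 109 TPM in WT. Listed macrophage marker transcripts, of 5 of 12 genes, summed to 3.47, 6.28 and 4.83 TPM in cKO and to 8.12, 27.4 and 22.9 TPM in WT. In each of these lists WT 2 was highest and cKO 1 lowest. The same held for the sums of leukocyte integrins, integrins of adherent cells, classical and type II cadherins, clustered protocadherins and non-clustered protocadherins. It held too for the sums of focal adhesion adaptors, cadherin adaptors and integrin counter-receptors. Over listed transcripts above 0 in all libraries, the median ratio to their geometric mean was also highest in WT 2, at 2.71. In cKO 1 that ratio was lowest, at 0.571. This order of extremes is therefore not particular to these lists. All 7 tested mesothelial, all 5 tested fibroblast and all 3 tested macrophage marker transcripts were lower in cKO, against 50.6% of all tested transcripts. The 3 macrophage transcripts came from 2 genes, Adgre1 and Gata6. Of the listed transcripts, 18 of 18 mesothelial, 23 of 27 fibroblast and 10 of 15 macrophage ones were lower in the deposited comparison. Among all listed transcripts 60.6% were lower. None of them passed in limma. The authors' deposited table called 1 fibroblast transcript, of Col1a2, and 1 macrophage transcript, of Gata6, both lower in cKO. The part of these cells in the differences of the adhesion receptors was not tested.

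Other lineages left little trace among listed transcripts. Endothelial markers without Cdh5 summed to 0.12 to 0.26 TPM in cKO and to 0.05 to 1.33 TPM in WT. Epithelial markers without Cdh1 summed to 0.04 to 0.26 TPM in cKO and to 0.14 to 1.59 TPM in WT, and Epcam and Krt5 were not among the listed genes. Platelet markers without Itga2b summed to 0.08 to 0.53 TPM in cKO and to 0.04 to 0.19 TPM in WT. B cell markers were at 0.05 TPM or less in cKO and at 0.06 to 0.47 TPM in WT. T and NK cell markers were at 0.03 to 0.04 TPM in cKO and 0.07 to 0.88 TPM in WT. Mast cell markers were at 0.13 to 0.32 TPM in cKO and 0 to 0.61 TPM in WT, and neutrophil markers at 0 in cKO and 0.19 to 1.12 TPM in WT.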

How the data were processed

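Poly(A) RNA of 6 libraries was made with a stranded kit and sequenced from both ends, trimmed with fastp, aligned with HISAT2 and assembled with StringTie, per the labels' protocols. The submitters' processing notes also name RSEM and DESeq2 but no version. Neither build nor annotation is stated in the sources used here. The authors deposited TPM per transcript and library, and, for each transcript, p-values before and after adjustment, the log2 fold change and the fold change itself (a ratio). Columns were matched to libraries by their labels, and a second short list, which holds 0 members, was not used.

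Transcripts with at least 1 TPM in at least 3 libraries were tested as log2(TPM + 1) with limma 3.58.1 in R 4.3.3 (variance trend, group as the only term, two-sided, Benjamini-Hochberg over all 2050 tested, threshold 0.05). This scale understates the change of scarce transcripts, and the selection of the table makes its p-values too small. Members and lists were chosen with earlier results of these data known. Named were the tested members, those called in the authors' deposited comparison, up to 4 further members per class by highest TPM, 1 per gene, Fbxo38 and up to 3 tested transcripts of each other list by mean TPM. One transcript that this rule names is not reported here. The other transcripts named were chosen after their values were seen. Classes came from GENCODE M21, which held 132 of the 135 members. The labels call the 3 libraries of a genotype separate samples, but do not tie each to its own mouse. p-values then measure the spread between these samples, which may be technical. The test was checked on simulated data. Tables and figures were made with Python 3.11.15, pandas 2.3.3, numpy 2.4.6, scipy 1.17.1 and matplotlib 3.10.9.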

Additional observations from a re-analysis of the deposited data

How the results depend on the processing

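The count of members past the threshold was 0 in the main test and under each of 15 other settings. Under an unadjusted limma p of 0.05 lay 0 of 4 members in the main test, and 472 of all 2050 tested transcripts. Without WT 1 these counts were 4 of 4 members and 651 of all 2050. The count past the threshold over all tested transcripts was 0 in the main test, with 3 under quantile normalization and 2 when at least 2 TPM were required in 3 libraries. Leaving out 1 library at a time gave 0 to 4, the 4 being without cKO 2. Each of the 4 tested members stayed lower in cKO and short of the threshold wherever it was tested, and the filter at 2 TPM removed Cdh3. The log2 fold change ranged from -1.77 to -0.52 for Itgav, from -1.75 to -0.43 for Cdh11, from -1.88 to -0.50 for Cdh3 and from -1.23 to -0.17 for Cdh1. In the fit with WT 3 as the only WT library, its spread was taken from the cKO libraries. The smallest differences came without WT 2 for Cdh3, at -0.50, and with median-ratio scaling for the other 3. That scaling was computed on listed transcripts and moved the median of all tested transcripts to 0.33, against -0.39 on the TPM scale. In a table selected on fold change this median is no measure of a shift that all transcripts share. The replicate block, the number 1 to 3 as a term, gave 0 called transcripts and 0 called members. With it, 2 of 4 members and 499 of all 2050 tested transcripts were under an unadjusted limma p of 0.05. The SE of each tested member was smaller with the block, for Itgav 0.45 against 0.64. Same-numbered libraries deviated together with correlations of 0.135, -0.137 and -0.109. With 3 libraries per genotype, these correlations cannot settle whether the numbers pair the libraries. After the data were seen, counts were repeated without each library. The count of members lower by mean TPM, 100 with all libraries, was 73 to 103, the 73 being without WT 2, and it was 66 when WT 3 alone was set against the cKO libraries, the libraries that hold Y-linked transcripts. The count with every cKO value below every WT value, 17 with all libraries, was 18 to 48, the 48 being without WT 1, and 60 with WT 3 alone, where fewer libraries leave less room for overlap. With 48 the share was 35.6%, against 23.2% of all listed transcripts, and with 60 it was 44.4%, against 33.1%. TPM without counts gives no depth, so levels near 0.01 TPM carry no stated error.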
